A study of Mus musculus with 2 samples.

Results

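The genes described here are 43 genes of microglia and macrophages, measured in cerebral cortex of presenilin conditional double knockout mice (PS cDKO) and of their controls. The 43 genes were chosen with earlier results of these data known. Their probe sets were taken by name: every probe set that the platform's annotation pairs with exactly 1 symbol of the 43 was used, whatever its values. Of the 43 genes, 38 had such a probe set, out of 8251 genes named this way on the array. The other 5, Lyn, Fyb, Trem2, Spp1 and Gpnmb, matched no such probe set and were not analysed here. The 38 genes had 57 probe sets.

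The study hybridised total RNA of mouse cerebral cortex to 2 arrays, 1 for PS cDKO and 1 for control, both from animals aged 6 months. Presenilins form the catalytic core of the γ-secretase complex. A conditional knockout removes its target only in cells in which the recombinase is active; the labels name neither the recombinase's promoter nor strain, sex or treatment, and do not say whether an array stands for 1 animal or a pool. With 1 array per genotype there was no replicate error, the spread between animals is unknown, and no test was made. Differences in RNA of a cell type in such tissue can come from more or fewer of its cells or from more or less RNA per cell, and these cannot be told apart here.

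Microglia are the resident macrophages of the brain. They depend on signalling through the receptor Csf1r, sense their surroundings through complement, Fc and lectin-like receptors, and pass many of these signals through short adaptors that carry immunoreceptor tyrosine-based activation motifs and recruit cytoplasmic kinases. In mouse models of neurodegeneration a part of them takes up an expression state called disease-associated microglia. Many of the genes are shared with blood monocytes and with macrophages at vessels and meninges, and some, such as Csf1, Axl and Lpl, are also transcribed by other brain cells.

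Signals below are deposited intensities. Those of the PS cDKO array were multiplied by 1.02 to bring the brighter probe sets of both arrays to a common level. Signals under 232, the 40th percentile of both arrays, were treated as below a floor. As deposited, the median intensity over all probe sets was 299.7 for the control and 305.5 for the PS cDKO, so the factor did not make these medians equal. Markers of cortical neurons were well above the floor on both arrays, with Thy1 at 3344 on the control and 2292 on the PS cDKO array. The labelled target Psen2 was below it on both, at 105 and 97.1, and gave no check of the genotype. Ratios are PS cDKO over control; a gene's ratio averages those of its probe sets that cleared the floor on both arrays.

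Most of the microglial and macrophage genes that could be measured had a somewhat higher signal in the PS cDKO cortex, and a few stood well above the rest. Of the 38 genes, 28 were above the floor on both arrays, 2 (Adgre1 and Cybb) passed it only in the PS cDKO and have a bound, and 8 were below it on both. Among the 30 with a ratio, 26 were higher in the PS cDKO and 4 lower, whereas 51.9% of all 5885 genes measured were higher. Adgre1 and Cybb could only be higher, given how they passed the floor; without bounds, 24 of 28 members and 50.76% of all 5414 such genes were higher. Their median log2 ratio was 0.18, a 1.13-fold difference, against 0.01 over all genes. The middle 50% of their log2 ratios ran from 0.07 to 0.30, and that of all genes from -0.15 to 0.16. Because the members were chosen with earlier results of these data known, these figures describe them and are no independent check.

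At 25% or more above the control, 7 of the 30 were higher, namely Itgam, Cd14, Tyrobp, Lcp1, Cd52, Itgax and Ptpn6, against 8.05% of all genes. None was lower by the same fold (20% or more below the control), against 8.36% of all genes. The last genes inside the upper limit were Itgax at 1.31-fold and Ptpn6 at 1.27-fold, and the first outside it were Csf1r at 1.24-fold and Cyba at 1.21-fold. At 1.5-fold only Itgam and Cd14 were higher, against 1.12% of all genes, and no member was 2-fold higher. The 23 other genes lay between these limits. Over the whole array, 749 genes had a pair of probe sets that both cleared the floor, and the scatter within these pairs gave an SD of 0.21 on the log2 scale for 1 probe set. Of the members' 30 log2 ratios, 17 lay within 1 such SD of 0. The same count was not made for all genes, but the range given above for them, -0.15 to 0.16, lay within it too. This SD comes from probe sets of the same arrays, so it holds no variation between arrays or animals. It describes 1 probe set, whereas some of the ratios average more than 1.

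**Figure D1:**
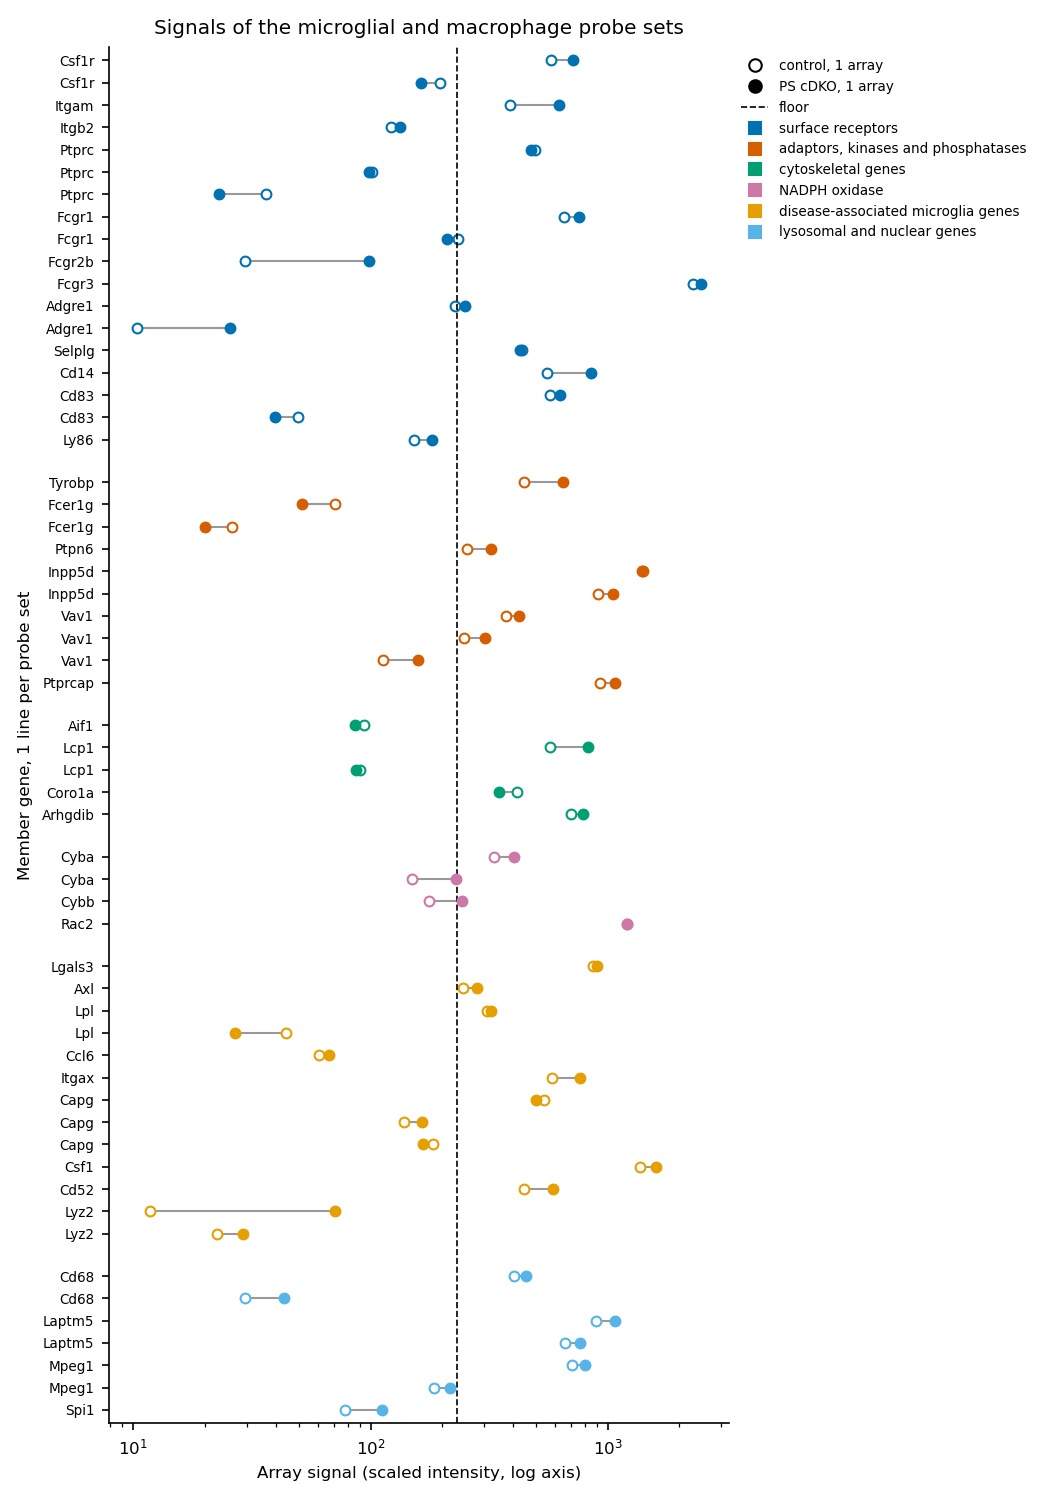
Array signal on a log axis for each of the 57 probe sets of the members, with open circles for the control array, filled circles for the PS cDKO array, colours for the gene classes and a dashed line at the floor of 232. Filled circles lie to the right of open ones for most probe sets above the floor, with the widest such gaps at Itgam, Cd14, Tyrobp and Lcp1, while 23 probe sets lie below the floor on both arrays.

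The class of surface receptors held the largest and some of the smallest differences. Itgam, the α chain of complement receptor 3 (CD11b), read 387 for the control and 623 for the PS cDKO, a log2 ratio of 0.68 or 1.61-fold. It ranked 32 from the highest among the 5885 genes. It had a single probe set. Cd14, the co-receptor through which Toll-like receptor 4 senses endotoxin, had signals of 553 and 849, a 1.54-fold difference and rank 48. Cd14 also belongs to genes used to describe reactive astrocytes, so that it does not mark 1 cell type. The β chain that pairs with Itgam, Itgb2, was below the floor on both arrays, at 122 and 132, and gave no ratio.

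Csf1r, the receptor for colony-stimulating factor 1 on which microglia depend, had signals of 576 and 714 on its brighter probe set, a 1.24-fold difference. Its other probe set was below the floor and ran the other way, at 197 and 162. With a floor at the 20th percentile both entered the mean and the gene's log2 ratio became 0.02. The difference of Csf1r therefore rested on 1 of 2 probe sets.

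The Fc receptors differed little. Fcgr1, the high-affinity receptor for IgG, had signals of 655 and 757 on its bright probe set, a 1.16-fold difference. Its second probe set, at 233 and 210, dropped just below the floor in the PS cDKO. The bright one carries a suffixed identifier (ending in _s_at), which marks probes that can match several transcripts, and without suffixed probe sets the log2 ratio was at most -0.01. Fcgr3, a low-affinity activating receptor, was at 2277 and 2458, 1.08-fold higher. Fcgr2b, the inhibitory receptor, was below the floor at 29.5 and 98.5, and its suffixed probe set gave no ratio.

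Among the other surface proteins the signals of both arrays lay close together. Ptprc (CD45), the phosphatase on all nucleated blood-derived cells, had signals of 492 and 476 on 1 probe set, 1.03-fold lower. Its further 2 probe sets were below the floor, at 101 and 98.7 and at 36.2 and 22.9. The 1 above the floor carries a suffixed identifier (ending in _g_at), and without suffixed probe sets Ptprc had no ratio. Selplg, the ligand of P-selectin, was 1.01-fold lower, at 433 and 427. Cd83, a surface protein of activated antigen-presenting cells, was higher by 0.14 on the log2 scale, at 570 and 629 on the probe set above the floor, while the one below it read 49.2 and 39.4. Adgre1, an adhesion G-protein-coupled receptor used as a macrophage marker, was just below the floor in the control at 228 and just above it at 249 in the PS cDKO, which makes it at least 1.07-fold higher. It passed the floor only through the group where it was higher, so this bound carries little information. Ly86 (MD-1), a partner of the Toll-like receptor homologue RP105, was below the floor at 153 and 182. Over the class, 7 of 9 genes with a ratio were higher, and the median log2 ratio was 0.14.

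Among adaptors, kinases and phosphatases all 5 genes with a ratio were higher, and their median log2 ratio was 0.24. Tyrobp (DAP12), the adaptor with an activation motif that serves Trem2 and other microglial receptors, had signals of 442 and 649, a 1.47-fold difference and rank 86. Fcer1g, the other adaptor of this kind and the signalling chain of the activating Fc receptors, was below the floor with both of its probe sets, at 70.4 and 51.4 and at 25.9 and 20.1. The pair of adaptors therefore cannot be compared. Ptpn6 (SHP-1), a phosphatase recruited by inhibitory receptors, had signals of 254 and 323, a 1.27-fold difference, close to the floor and from a suffixed probe set.

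The remaining signalling genes stayed within the same limits. Vav1, a signalling protein downstream of immune receptors, was 1.18-fold higher as the mean of 2 probe sets, at 371 and 422 and at 249 and 305; the remaining one was below the floor at 113 and 159, so that all 3 read higher in the PS cDKO. Inpp5d (SHIP1), a lipid phosphatase that limits such signalling, was at 1398 and 1407 on its brighter probe set and at 906 and 1046 on the other. Its mean was 1.08-fold higher, made of 1.01-fold for the first and 1.15-fold for the other. Ptprcap, a protein bound to CD45 that is known mainly from lymphocytes, was 1.15-fold higher, at 930 and 1070. Ptprc, which encodes CD45, was not higher.

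Of 4 cytoskeletal genes, 3 had a ratio and they spread widely, from -0.26 to 0.54 on the log2 scale. Lcp1 (L-plastin), an actin-bundling protein of leukocytes, had signals of 568 and 824, a log2 ratio of 0.54 and rank 95. Its second probe set was below the floor and level, at 90.6 and 86.6. Arhgdib, a protein enriched in blood-derived cells, was 1.12-fold higher, at 697 and 783. Coro1a, an actin-binding coronin of leukocytes that neurons also express, had a log2 ratio of -0.26, at 415 and 347, the lowest ratio of all 30 genes. Aif1, which encodes the widely used microglial marker Iba1, was below the floor on both arrays at 94.2 and 85.6, so these arrays say nothing on it.

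The NADPH oxidase of phagocytes produces superoxide; its membrane core is made of Cyba (p22phox) and Cybb (gp91phox), and Rac2 is the GTPase that activates it. Cyba was at 332 and 402, 1.21-fold higher, and its second probe set reached 149 and 228, just under the floor. Cybb was below the floor in the control at 175 and above it, at 242, for the PS cDKO, at least 1.04-fold higher. With a floor at the 20th percentile Cybb was measured on both arrays at a log2 ratio of 0.46 and Cyba was at 0.45. Rac2 was level, at 1203 and 1208. The class median of 0.06 on the log2 scale therefore depended on the floor, and was 0.45 with the lower one. Of the other oxidase genes examined, 4 of 6 were measured. The cytosolic organiser Ncf1 was 1.09-fold higher, at 390 and 424, and Rac1, a GTPase present in most cells, was 1.29-fold lower, at 3091 and 2403.

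Of the 12 genes of the disease-associated microglia class, 7 had a ratio, 6 of them higher, with a median log2 ratio of 0.19. Cd52, a short glycoprotein of leukocyte surfaces, had signals of 442 and 585, a 1.33-fold difference. Itgax (CD11c), an integrin α chain of dendritic cells and of activated microglia, had signals of 582 and 763, 1.31-fold higher. Itgam and Itgax, which share the partner Itgb2, were thus both among the 7 genes at least 25% higher. Csf1, the ligand of Csf1r, was 1.16-fold higher, at 1364 and 1587, and Axl, a receptor tyrosine kinase for the phosphatidylserine-bridging protein Gas6, was 1.14-fold higher, at 246 and 282, close to the floor.

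The other genes of that class showed small differences or no usable signal. Lgals3 (galectin 3) was 1.05-fold higher, at 862 and 902. Lpl, lipoprotein lipase, was 1.04-fold higher on its probe set above the floor, at 309 and 323, and ran the other way on the dim one, at 43.8 and 26.9. Capg, an actin-capping protein, was 1.08-fold lower, at 536 and 498. Its further 2 probe sets were below the floor and opposed each other, at 138 and 165 and at 183 and 167. The chemokine Ccl6 was below the floor at 60.8 and 66.9. Lyz2, lysozyme M, was below it with both probe sets, at 11.8 and 70.8 and at 22.4 and 28.9. A further probe set, which the annotation pairs with both Lyz1 and Lyz2 and which was therefore not used, was at 465 and 422, a log2 ratio of -0.14.

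The measured genes of the lysosomal and nuclear class lay close together. Laptm5, a lysosomal membrane protein of blood-derived cells, was higher on both probe sets, at 889 and 1066 and at 660 and 766, which gave a mean of 1.18-fold. Mpeg1 (perforin-2), a pore-forming protein of macrophages, was 1.12-fold higher at 709 and 797, with its dim probe set at 185 and 216. Cd68 (macrosialin) was 1.12-fold higher at 403 and 451, with its dim one at 29.5 and 43.0. Both carry suffixed identifiers, and without suffixed probe sets Cd68 had no ratio. Spi1, which encodes PU.1, the transcription factor that macrophages and microglia need, was below the floor at 77.8 and 112. Over the class 3 of 3 genes with a ratio were higher, and the median was 0.17 on the log2 scale.

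**Figure D2:**
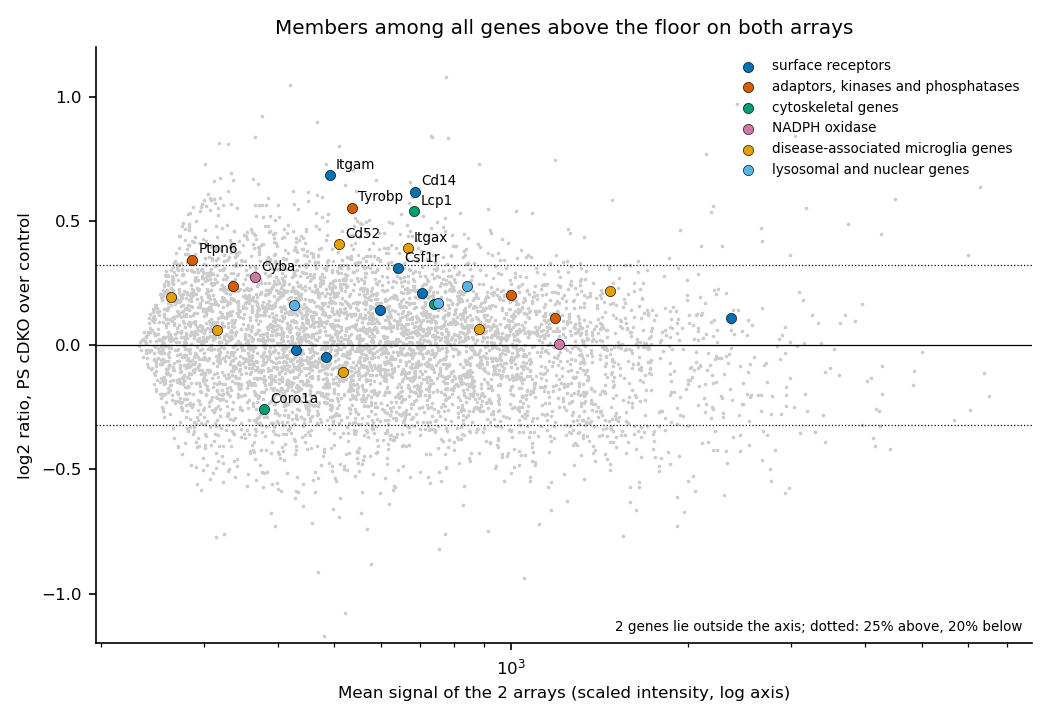
log2 ratio of PS cDKO over control against mean signal (log axis) for genes that cleared the floor on both arrays, with 28 members coloured by class, other genes in grey, dotted lines at 25% above and 20% below the control and 2 genes outside the axis. The members lie mostly above 0 at all signal levels, with Itgam, Cd14, Tyrobp and Lcp1 at the top and Coro1a lowest.

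Repeated probes gave a limited check. Of the 38 genes, 16 had 2 or more probe sets, but only 3 (Vav1, Inpp5d and Laptm5) had 2 above the floor on both arrays, and in each of these both were higher in the PS cDKO. For the brighter probe set of Inpp5d this rested on the scaling, as its deposited intensities were 1398 for the control and 1374 for the PS cDKO. Of the 57 probe sets, 31 were above the floor on both arrays, 3 on 1 array and 23 on neither. Of those 23, 13 had the higher signal in the PS cDKO. Values this dim have no order that can be relied on.

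The promoters of some of these genes are shown because a member of the group, PU.1, is known to bind many macrophage promoters at sites built around GAGGAA. Whether PU.1 had a part in the ratios was not tested. The sequences are from RefSeq (GRCm38.p6) and cover the 250 bases before the gene's start, 5′ to 3′ on the plus strand, at chr7:128062390-128062639 for Itgam, chr4:130913066-130913315 for Laptm5, chr17:57278850-57279099 for Vav1, chr1:87620062-87620311 for Inpp5d and chr7:128129300-128129549 for Itgax. Itgam had the highest ratio, Laptm5, Vav1 and Inpp5d are the 3 genes with 2 measured probe sets, and Itgax is the other integrin at least 25% higher. Capitals mark GAGGAA on either strand (read as TTCCTC on the printed one) and, in Itgax, a match to the AP-1 motif TGANTCA.
Itgam: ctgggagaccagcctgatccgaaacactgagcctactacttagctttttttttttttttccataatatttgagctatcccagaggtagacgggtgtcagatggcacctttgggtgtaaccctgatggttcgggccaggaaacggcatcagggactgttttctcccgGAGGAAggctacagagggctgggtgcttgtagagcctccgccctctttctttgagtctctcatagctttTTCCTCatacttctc
Laptm5: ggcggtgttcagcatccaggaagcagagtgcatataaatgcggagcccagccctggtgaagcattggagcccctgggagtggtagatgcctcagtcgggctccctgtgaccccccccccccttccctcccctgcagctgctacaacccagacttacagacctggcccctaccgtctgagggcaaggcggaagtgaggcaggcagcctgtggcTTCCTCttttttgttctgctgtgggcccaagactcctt
Vav1: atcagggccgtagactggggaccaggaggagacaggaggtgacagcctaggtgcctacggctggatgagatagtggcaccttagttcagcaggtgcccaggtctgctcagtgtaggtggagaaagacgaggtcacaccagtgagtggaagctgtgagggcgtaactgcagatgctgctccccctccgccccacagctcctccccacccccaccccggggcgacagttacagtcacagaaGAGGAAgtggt
Inpp5d: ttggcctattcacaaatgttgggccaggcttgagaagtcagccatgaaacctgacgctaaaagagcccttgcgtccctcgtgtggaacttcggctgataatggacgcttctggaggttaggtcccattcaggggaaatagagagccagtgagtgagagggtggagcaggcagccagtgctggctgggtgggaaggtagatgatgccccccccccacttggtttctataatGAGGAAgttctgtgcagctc
Itgax: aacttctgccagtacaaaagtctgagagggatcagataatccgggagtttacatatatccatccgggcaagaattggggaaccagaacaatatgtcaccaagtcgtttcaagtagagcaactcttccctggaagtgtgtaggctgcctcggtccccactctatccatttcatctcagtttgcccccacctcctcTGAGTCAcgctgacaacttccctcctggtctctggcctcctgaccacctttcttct
In Itgam the 2 matches begin 84 and 15 bases before the start, the second on the opposite strand. In Vav1 and Inpp5d the match begins 11 and 20 bases before the start and extends to GAGGAAGT. In Laptm5 it begins 38 bases before the start, on the opposite strand. The Itgax window holds no GAGGAA, and its AP-1 match begins 56 bases before the start.

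Of the 43 genes, 30 had a promoter in the table, and 14 of these (46.7%) held GAGGAA on either strand in the 250 bases, against 25.9% of 27025 genes; a gene with several starts counted if any held it. The longer GAGGAAGT, which contains the shorter motif, was in 3 of 30, Inpp5d, Vav1 and Spp1, against 2.79% of all genes. TGANTCA was in 4 of 30, Cybb, Trem2, Itgax and Cd68, against 7.82%. Of the 7 genes that were at least 25% higher, 4 had a promoter in the table, and Itgam was the only 1 of these with GAGGAA. These matches describe letters and not binding.

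Other genes of microglia that are not among the 43 showed the same direction with larger single differences. In a list of 29, 16 were measured, 12 were higher, 4 by at least 25% (C1qa, Ctss, C1qc and Cst3), and the median log2 ratio was 0.20. C1qa, a subunit of the first complement component, was at 532 and 1124, or 2.11-fold, and the lysosomal protease Ctss at 545 and 978, or 1.79-fold. No member reached the ratio of either. Of 22 other disease-associated genes 18 were measured, 15 were higher and 6 by at least 25%: Cd9 and Cd74, which have bounds, Cd63, Cst7, Ctsd and Apoe. The cystatin Cst7 was at 584 and 1041, 1.78-fold higher, and the protease Ctsd at 2261 and 3137, 1.39-fold higher. Of 21 other signalling partners of immune receptors, 12 were measured and none was 25% higher or 20% lower. Their median was 0.07, with the kinase Syk, which Tyrobp recruits, at 654 and 753 or 1.15-fold higher, and the actin regulator Was likewise 1.15-fold higher, at 686 and 790.

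Markers of other cells moved beside the members. For monocytes and neutrophils, 8 of 14 genes were measured, 5 were higher and 2 by at least 25%, with a median log2 ratio of 0.23; these were Mpo (770 and 968) and S100a8, at least 0.39 higher on the log2 scale. The summed signal of that list above the floor was 5458 for the control and 5610 for the PS cDKO. Of 8 markers of perivascular and meningeal macrophages only Cbr2 was measured, 1.22-fold lower at 557 and 458. B cell markers had a median of 0.17, with 7 of 8 higher and Cd79a (303 and 381) the only 1 at least 25% higher, and a summed signal of 9620 and 10301. T and NK cell markers had a median of 0.06, with 5 of 9 higher, none 25% higher and Cd2 at most -0.53 on the log2 scale, and a summed signal of 6757 and 7060. No probe set of these lists had a signal of 0 or less. The members' own summed signal was 20710 and 23737. The medians of the monocyte and B cell lists were thus close to that of the members, so that a shift of this size was not particular to them. The part of these cells in the members' ratios was not tested.

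Markers of neurons were lower and some of astrocytes higher on the same arrays. Of 8 neuronal markers measured 5 were at least 20% lower (Nrgn, Thy1, Tbr1, Nefl and Snap25), with a median log2 ratio of -0.42 and a summed signal of 17275 and 13834. Of 7 astrocyte markers Gfap, Gja1 and Aqp4 were at least 25% higher, with Gfap at 458 and 2145, and the median was 0.20. The 2 probe sets of Gja1 disagreed. Its brighter one was level, at 1455 and 1475, and the dimmer one, near the floor on the control array, read 250 and 527. Red blood cell markers were lower, with Hba-a1 at 2104 and 1535 and a summed signal of 2360 and 1772. Oligodendrocyte markers had a median of -0.29 over 4 genes and endothelial ones 0.01 over 3. The part of these shifts in the members' ratios was not tested.

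**Figure D3:**
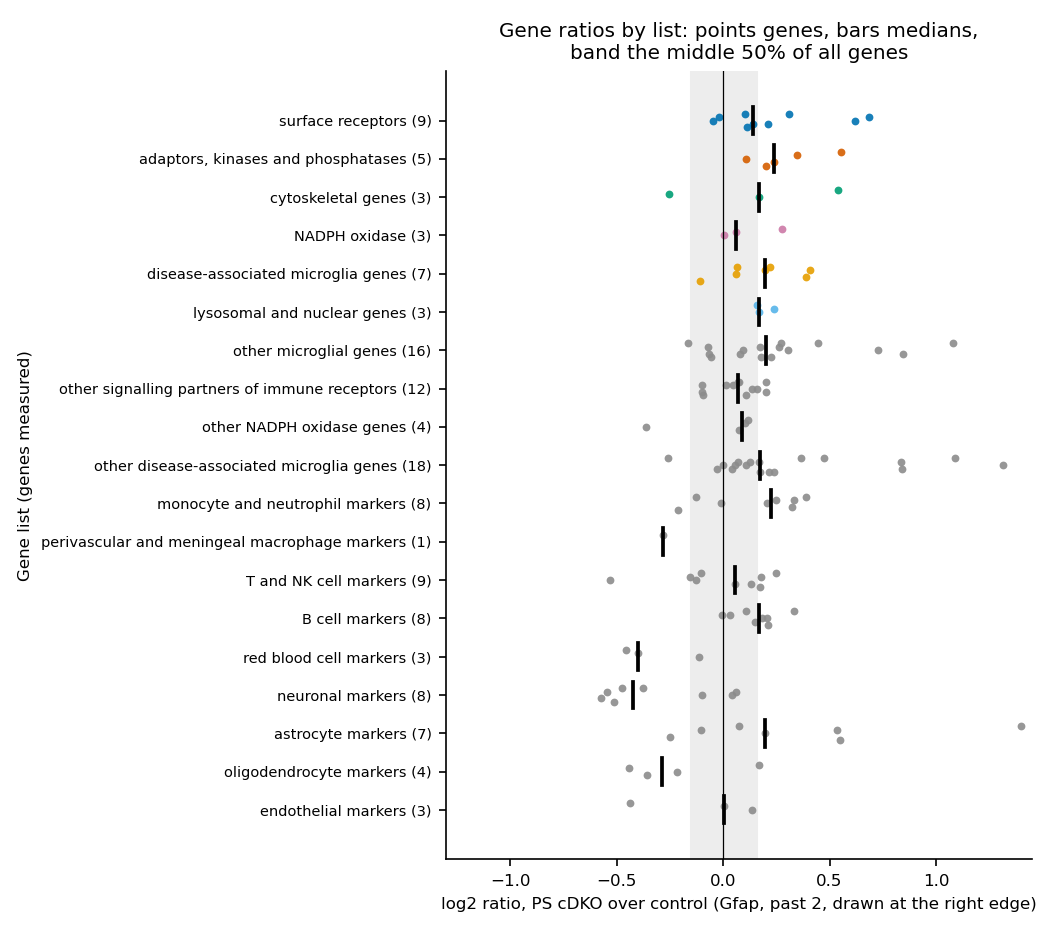
log2 ratios of single genes (points) by list, with bars at the list medians, the number of genes measured in parentheses, bounded genes at their bound and a grey band for the middle 50% of all genes. The 6 member classes (coloured) have medians between 0.06 and 0.24, the monocyte and B cell lists lie at 0.23 and 0.17, and the neuronal list lies at -0.42.

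Across 10 ways of processing the arrays, 5 of the 7 genes at least 25% higher stayed so in every one. These were Itgam (log2 ratios of 0.63 to 0.68), Cd14 (0.58 to 0.63), Tyrobp (0.52 to 0.55), Cd52 (0.37 to 0.41) and Itgax (0.36 to 0.39). Each of these 5 had a single probe set, without a suffix and above the floor on both arrays. A lower floor or none, the brightest probe set, and leaving out suffixed probe sets or bounds therefore could not change their ratios. All settings reread the same arrays, so these ranges say nothing on the spread between animals. The share of all genes that stayed so was not counted. Lcp1 was 1.18-fold higher with no floor, where its dim probe set entered the mean, and Ptpn6, measured in 8 of the 10, was at least 25% higher in 5. Of the 26 genes with a higher signal, 22 were higher in every setting that measured them, and the exceptions were Fcgr1, Cd83, Rac2 and Lpl. The 22 include Adgre1 and Cybb, which were measured in 8 of the 10 settings and could only be higher where they had a bound. How many of all genes kept their direction in this way was not counted either.

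**Figure D4:**
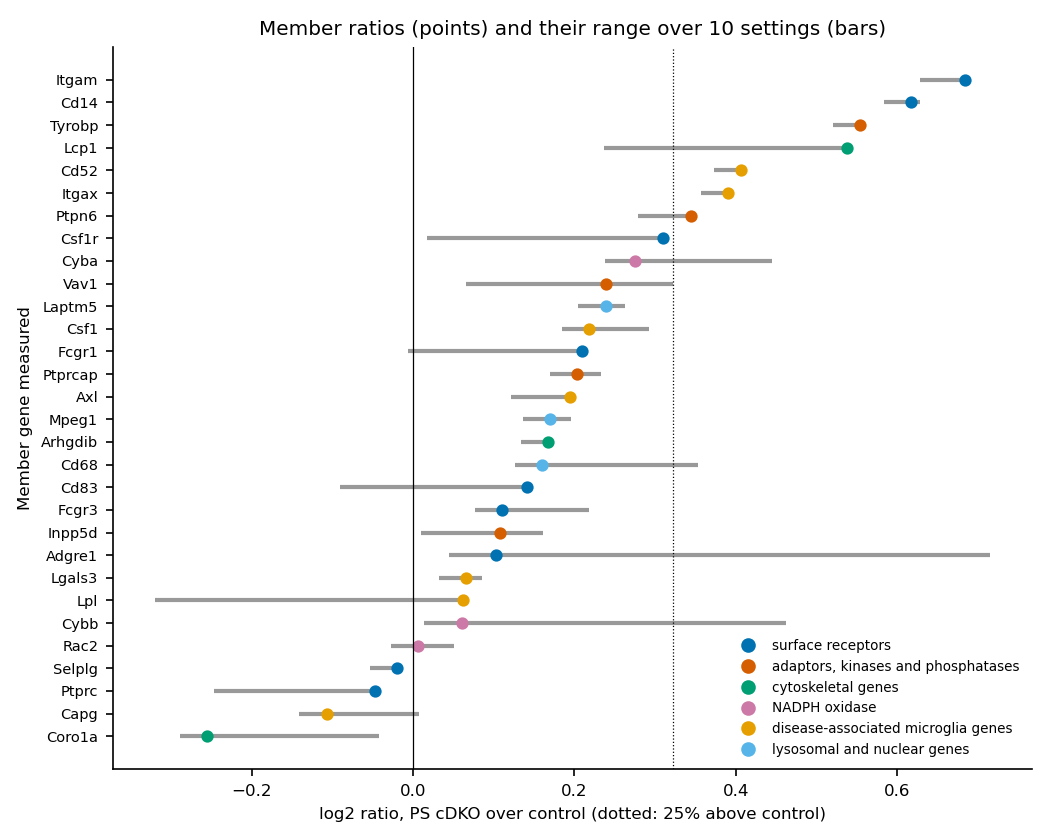
log2 ratio of each of the 30 members with a ratio (points, coloured by class) and the range it took over 10 processing settings (grey bars), with a dotted line at 25% above the control. The bars of Itgam, Cd14, Tyrobp, Cd52 and Itgax stay to the right of the line. Lcp1 and Ptpn6, the other genes at least 25% higher, have bars that cross it. Those of Lcp1, Csf1r, Adgre1, Cybb and Lpl are long.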

How the data were processed

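RNA of 1 control and 1 PS cDKO cortex sample was measured on 1 array each. The deposited table holds a linear intensity for each of 12418 probe sets per array; no source used here names the array software, background step or scaling. Some values are negative (13 and 18), so some subtraction came before deposit, and whether the authors centred the arrays is unknown. Probe sets were named through the platform annotation, which can be old: 10829 had 1 symbol, 396 several and 1193 none. Of 8251 genes, 8237 had their gene ID in RefSeq (GRCm38.p6).

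The PS cDKO array was multiplied by a factor that set the median log2 ratio to 0 over probe sets in the upper part of both arrays. Signals under the 40th percentile were set to that floor. A gene averages the probe sets that cleared the floor on both arrays, or otherwise its bounds; 5885 genes were measured, 471 of them as bounds. Folds of 1.25, 1.5 and 2 describe size, and no test was possible. The functions were tested on simulated data. Named were all members and up to 3 genes with the largest absolute ratio of each of 13 other lists; others named (Cst3, Apoe, Cd9, Cd74, S100a8, Cd2, Nefl and Snap25) were chosen after their values were seen. Members and lists were chosen with earlier results of these data known. Alternatives were no scaling, quantile normalization, lowess (span 0.3), other floors (20th and 60th percentile, none), the brightest probe set, no suffixed probe sets and no bounds. Python 3.11.15, numpy 2.4.6, pandas 2.3.3, statsmodels 0.14.6 and matplotlib 3.10.9 were used.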

Additional observations from a re-analysis of the deposited data

How the results depend on the processing

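No paired analysis was possible because both genotypes have a single array, and for the same reason none could be omitted. The members' median log2 ratio ran from 0.15 with intensities as deposited to 0.20 with no floor, and their mean was 0.20. The number of members at least 25% higher was 6 to 9 under the other alternatives, where 5.52% to 11.52% of all genes passed. Without a floor it was 14 of the 38 genes that gave a ratio, against 16.2% of all genes. In that setting 1 member was at least 20% lower, against 9.39% of all genes. The number 1.5-fold or more higher was 1 with intensities as deposited, against 0.87% of all genes, and 5 with no floor, against 4.93%. At 2-fold it was 0, and the share of all genes at that fold was not counted. The median of the NADPH oxidase class was 0.45 both without a floor and with that at the 20th percentile, where the dim probe set of Cyba entered its mean and Cybb had a ratio in place of a bound. With intensities as deposited 6.35% of all genes were at least 25% higher and 10.75% at least 20% lower. With no floor the log2 ratios of Csf1r, Cd83 and Lpl were 0.02, -0.09 and -0.32. For 8 of the 38 genes the signal was too near background for any statement.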
